A study of Mus musculus with 8 samples.

Results

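The genes described here encode the giant ruler proteins of the sarcomere and the proteins that tie its thick filaments together. They are Ttn (titin), Neb (nebulin), Nebl (nebulette), Myom1 and Myom2 (myomesins), Obsl1 (obscurin-like 1), and Mybpc1, Mybpc2 and Mybph (myosin-binding proteins C and H). They were chosen by name, and each matched 1 row of the deposited gene table, so that 9 of 36048 genes are members. Their levels were compared between 3 populations of mouse skeletal muscle. The 3 libraries of single muscle fibres (SMF), the contractile cells, each came from 100 fibres that rested for 3 h after isolation from a hindlimb muscle, the extensor digitorum longus (EDL). The 2 libraries of satellite cells (SC), the resident stem cells of muscle, carry the numbers 1 and 3. The 3 libraries of endothelial cells (EC) hold cells of the vessel walls. Both cell types were obtained by flow sorting of hindlimb muscle, at about 100000 cells a library. No group carried a treatment or a transgene in the labels, and strain, age and sex are not given there. The muscle of origin and the way of isolation differed together with the population, so these cannot be told apart. Separate animals are not named in the labels, and p-values here describe the spread among 8 libraries, part or all of which may be technical.

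Titin runs from the Z disc, where the sarcomere is anchored, to the M band at its centre, and acts as a molecular spring and as a scaffold for the thick filament of myosin. Nebulin lies along the thin filament of actin, and nebulette is its shorter relative, best known from the Z discs of heart muscle. Myomesins cross-link myosin and titin in the M band, obscurin-like 1 binds titin and myomesin there, and the myosin-binding proteins C form stripes between the M band and the end of the thick filament.

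Values are FPKM (fragments per kilobase of transcript, scaled to the fragments of the library), as deposited. From the deposited transcript coverage, SMF libraries hold 525 to 581 Mb of aligned sequence, SC libraries 278 to 313 Mb and EC libraries 298 to 368 Mb. A single fragment of 100 bases on a transcript of 1 kb is then worth 0.172 to 0.190 FPKM in SMF libraries, 0.320 to 0.360 in SC libraries and 0.272 to 0.336 in EC libraries. The lists of fast fibre, satellite cell and endothelial markers followed the labels. The summed FPKM of 13 fast fibre markers was 40819.7 to 43992 in SMF, 241 to 380.4 in SC and 12.4 to 26.5 in EC. That of satellite cell markers was 25.4 to 33.0, 856 to 895 and 16.7 to 24.5 in the same order. That of endothelial markers was 5.03 to 5.75, 20.8 to 28.6 and 1581 to 1624. Fast fibre transcripts were thus also present in every sorted library, and no fast fibre marker was at 0 in either SC library. In the EC libraries 2 to 4 of the 13 were at 0. Markers of other cell types were present too: mural markers summed to 28.8 to 29.9 FPKM in SMF, 218 to 273 in SC and 226 to 698 in EC. Fibro-adipogenic markers summed to 24.7 to 42.9, 148 to 155 and 121 to 182 FPKM in the same order. Single genes carried much of these sums. In SC most of the mural sum was Acta2 (165 FPKM) and Notch3 (63.7 FPKM). The other mural markers averaged at most 8.25 FPKM there (Rgs5, against 339 FPKM in EC). In SMF most of the mural sum was Abcc9 (22.1 FPKM), and in SC most of the fibro-adipogenic sum was Dpt (99.4 FPKM). The labels state that 1 sample, which is not named, missed the limit set on RNA quality. In RNA from whole populations, fewer cells of a type and less RNA per cell cannot be told apart.

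All members but Nebl were higher in SMF than in SC and than in EC, and Nebl was lower in both comparisons. The test was limma on log2(FPKM + 1) with Benjamini-Hochberg adjustment over the 16700 genes that reached 1 FPKM in at least 2 libraries, called at an adjusted p under 0.05. In SMF minus SC, 8 members were higher and 1 was lower, where 65.1% of all tested genes were called, 8.57% higher and 56.5% lower. In SMF minus EC the member counts were again 8 higher and 1 lower, with 66.3% of all tested genes called, 10.8% higher and 55.5% lower. In SC minus EC, 5 members were higher and none was lower, with 37.7% of all tested genes called, 21.2% higher and 16.4% lower. The median log2 difference of the members was 5.41 in SMF minus SC, against -0.93 over all tested genes, and 6.41 in SMF minus EC, against -0.85 over all. In SC minus EC it was 0.46, against 0.11 over all. The balance of calls over all genes depends on scaling: of the calls in SMF minus SC, 13.2% were higher as deposited and 45.1% after median-of-ratios scaling, which moved the median of all genes to -0.21. In SMF minus EC these shares were 16.3% as deposited and 43.9% after that scaling, with a median of -0.19. The directions of the 9 members in both comparisons with fibres were the same under every scaling.

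**Figure D1:**
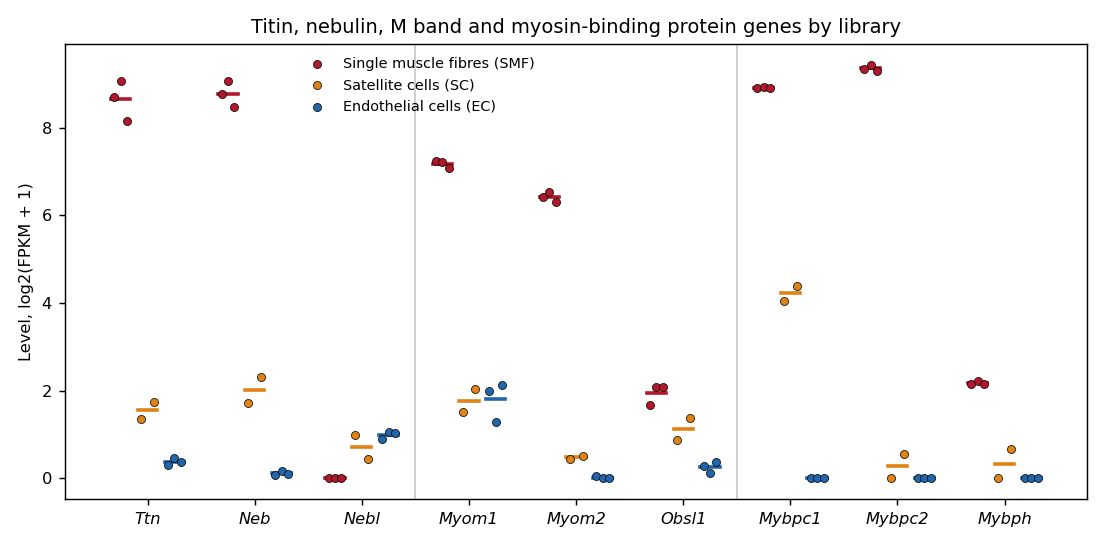
Level of each gene as log2(FPKM + 1) in every library of SMF, SC and EC (points), with the mean of each population (short line). The SMF points of Ttn, Neb, Mybpc1, Mybpc2, Myom1 and Myom2 stand far above all SC and EC points, those of Obsl1 and Mybph slightly above, and those of Nebl are at 0.

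All 9 members passed the filter on low values, by different routes. Myom1 reached 1 FPKM in all 8 libraries. Ttn, Neb and Mybpc1 reached it in the 3 SMF and the 2 SC libraries, and Obsl1 in the 3 SMF libraries and 1 SC library. Mybpc2, Mybph and Myom2 passed through the 3 SMF libraries alone, and Nebl through 2 EC libraries alone, so for these 4 genes a difference was built into passing.

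Among the ruler genes, Ttn (chr2:76703980-76982557, GRCm38.p6) had 419, 536 and 286 FPKM in SMF replicates 1 to 3, against 1.56 and 2.36 FPKM in SC replicates 1 and 3 and 0.242, 0.368 and 0.283 FPKM in EC replicates 1 to 3. The 3 populations did not overlap. The log2 difference was 7.10 ± 0.27 (SE, adjusted p = 1.29e-06 in limma) in SMF minus SC and 8.27 ± 0.24 (adjusted p = 1.51e-07) in SMF minus EC. In SC minus EC it was 1.18 ± 0.27 (adjusted p = 0.0102), and this call was lost under scaling without the 50 most abundant genes (0.89, adjusted p = 0.0602) and without SC replicate 3 (0.98, adjusted p = 0.0819). Because titin is so long, even low FPKM rest on many reads: the coverage of its listed transcripts corresponds to 569 to 767 fragments of 100 bases in SC libraries and 89.6 to 158 in EC libraries.

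Neb (chr2:52136640-52338798) had 438, 536 and 356 FPKM in SMF, against 2.29 and 3.98 FPKM in SC and 0.0516, 0.122 and 0.0714 FPKM in EC. The populations again did not overlap. The log2 difference was 6.76 ± 0.23 (SE, adjusted p = 1.03e-06) in SMF minus SC, 8.66 ± 0.21 (adjusted p = 1e-07) in SMF minus EC and 1.90 ± 0.23 (adjusted p = 0.000542) in SC minus EC. The 10 Neb transcripts listed in the deposited transcript table sum to 0.172 and 1.71 FPKM in SC replicates 1 and 3, below the gene values, so most of the gene value in SC replicate 1 rests on transcripts not analysed here. The transcript with 152 exons, ENSMUST00000075301, had 326, 409 and 260.2 FPKM in SMF and was listed at 0 in both SC libraries.

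The balance of Ttn and Neb depended on the table. The ratio of Ttn to Neb FPKM was 0.955, 1.00 and 0.803 in SMF, a mean of 0.919 ± 0.103 (SD, n = 3), and 0.680 and 0.594 in SC. In EC it was 4.69, 3.01 and 3.97. The listed Neb transcripts there carry 0, 0 and 1.23 fragments of 100 bases and sum to less FPKM than the gene value. They thus give the size of this ratio little support. In the deposited TPM table (transcript abundance scaled to a fixed total) the ratio was 0.606, 0.460 and 0.469 in SMF and 0.660 and 0.482 in SC, so SMF and SC overlapped there. Gene FPKM and the FPKM summed over listed transcripts are unlike measures in SMF. In SMF replicate 1 these sums were 1860 FPKM for Neb and 1107 FPKM for Ttn, against gene values of 438 and 419 FPKM.

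Nebl (chr2:17342673-17734949) went the other way. It was listed at 0 in all 3 SMF libraries and had 0.975 and 0.359 FPKM in SC and 0.865, 1.07 and 1.03 FPKM in EC. SMF lay below every SC and EC library, while the SC and EC ranges overlapped. Nebl was called lower in SMF minus SC (adjusted p = 0.0173) and in SMF minus EC (adjusted p = 0.00196), and was not called in SC minus EC (log2 difference -0.28 ± 0.21, SE, adjusted p = 0.339). These are small values: the listed Nebl transcripts carry 9.20 to 21.6 fragments of 100 bases in SC libraries and 7.78 to 14.1 in EC libraries. The call against SC was lost under scaling without the 50 most abundant genes (log2 difference -0.52, adjusted p = 0.0563). The Nebl signal also came mainly from a short transcript with 2 exons, ENSMUST00000130725, which held 100% of the listed Nebl FPKM in both SC libraries and 100, 78.6 and 69.3% in EC. GENCODE M39 gives this transcript no coding sequence, and 14.2% of its bases lie in exons of protein-coding Nebl transcripts. All 10 listed Nebl transcripts were at 0 in SMF.

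In the M band, Myom1 (chr17:71003332-71126856), the myomesin of all striated muscle, had 151, 147 and 134 FPKM in SMF, against 1.84 and 3.08 FPKM in SC and 2.96, 1.44 and 3.38 FPKM in EC. SMF stood far above, while SC and EC overlapped fully. The log2 difference was 5.41 ± 0.28 (SE, adjusted p = 4.28e-06) in SMF minus SC and 5.38 ± 0.25 (adjusted p = 9.75e-07) in SMF minus EC. In SC minus EC it was -0.036 ± 0.28 (adjusted p = 0.939). By FPKM, Myom1 was the highest of the 9 genes in EC, while in the TPM table Nebl was above it in EC replicates 2 and 3.

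Myom2 (chr8:15057653-15133420), the myomesin typical of fast fibres, had 84.4, 92.4 and 78.7 FPKM in SMF, against 0.359 and 0.420 FPKM in SC and 0.0348 FPKM, 0 and 0 in EC. The log2 difference was 5.95 ± 0.13 (SE, adjusted p = 3.3e-07) in SMF minus SC and 6.41 ± 0.12 (adjusted p = 5.98e-08) in SMF minus EC. In SC minus EC it was 0.46 ± 0.13 (adjusted p = 0.0299), and this call was lost under several alternatives, among them median-of-ratios scaling (0.30, adjusted p = 0.134). The long coding transcript was listed at 0 in both SC libraries. In SC the only Myom2 transcript above 0 was ENSMUST00000131251, with 0.793 and 0.929 FPKM, which GENCODE M39 types as a retained intron. In SMF the transcript with 37 exons, ENSMUST00000033842, held 93.4, 93.5 and 94.5% of the listed Myom2 FPKM.

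The ratio of Myom1 to Myom2 was 1.78, 1.59 and 1.70 in SMF, a mean of 1.69 ± 0.096 (SD, n = 3), and 5.12 and 7.32 in SC. It could be formed in EC replicate 1 alone, where it was 85.1 with Myom2 at 0.0348 FPKM. In the TPM table it was 1.06, 0.943 and 1.02 in SMF, against 2.34 and 3.35 in SC, so Myom1 was above Myom2 in every SMF library in FPKM but not in TPM.

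Obsl1 (chr1:75485825-75506486), which outside muscle also belongs to a complex with the ubiquitin ligase scaffold CUL7, showed the smallest log2 differences in FPKM between fibres and sorted cells among the 8 higher members. It had 2.21, 3.27 and 3.24 FPKM in SMF, against 0.818 and 1.60 FPKM in SC and 0.217, 0.0922 and 0.286 FPKM in EC. The 3 ranges followed each other without overlap. The log2 difference was 0.83 ± 0.22 (SE, adjusted p = 0.0109) in SMF minus SC, 1.70 ± 0.20 (adjusted p = 0.000137) in SMF minus EC and 0.86 ± 0.22 (adjusted p = 0.0168) in SC minus EC. Without SC replicate 1 the difference in SMF minus SC was 0.57 with an adjusted p of 0.0677. The call in SC minus EC was lost under scaling without the 50 most abundant genes (0.64, adjusted p = 0.0622) and without SC replicate 3 (0.61, adjusted p = 0.0952). The listed transcript with 20 exons, ENSMUST00000113567, had 2.85, 2.48 and 2.40 FPKM in SMF and 0.682 FPKM and 0 in SC replicates 1 and 3, while the one with 12 exons, ENSMUST00000155084, had 2.24 FPKM in SC replicate 3.

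Of the myosin-binding proteins, Mybpc2 (chr7:44501699-44524715), the fast type of protein C, had the highest FPKM of the members in fibres, though not the highest TPM. It had 651, 695 and 624 FPKM in SMF, against 0 and 0.462 FPKM in SC and 0 in each of the 3 EC libraries. It was called higher in SMF minus SC (log2 difference 9.09 ± 0.18, SE, adjusted p = 3.21e-07) and in SMF minus EC (adjusted p = 5.8e-08). The value in SC replicate 3 corresponds to 4.63 fragments of 100 bases, and SC minus EC was not called (adjusted p = 0.281).

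Mybpc1 (chr10:88518279-88605229), the slow type of protein C, which fast fibres also carry, had 478, 485 and 477 FPKM in SMF, against 15.6 and 20.1 FPKM in SC and 0 in each of the 3 EC libraries. These FPKM were the steadiest fibre values of any member above 0, with a coefficient of variation of 0.923%, while the TPM table gives 434, 422 and 349 TPM. The scale of TPM against FPKM was lower in SMF replicate 3, as given below for Mybpc2. It was called higher in SMF minus SC (log2 difference 4.68 ± 0.15, SE, adjusted p = 7.85e-07), in SMF minus EC (adjusted p = 2.83e-08) and in SC minus EC (adjusted p = 1.34e-06). Mybpc1 was the highest member in SC, above Neb without overlap, and its listed transcripts there carry 221 to 253 fragments of 100 bases. Of the embryonic myosin and myocyte markers, Myog and Ncam1 averaged 30.0 and 29.8 FPKM in SC, against 0.625 and 0.505 FPKM in SMF. Myh3 and Myh8 went the other way, with 1.76 and 2.49 FPKM in SC and 7.97 and 106 FPKM in SMF. Which cells of the SC libraries carry Mybpc1 was not tested. The 8 slow fibre markers were low beside Mybpc1 in SMF alone, where they summed to 1.28 to 3.08 FPKM. They summed to 48.9 to 59.3 FPKM in SC and 30.3 to 39.5 FPKM in EC, above Mybpc1 in both. Myl2 and Myl3, the slow light chains, were at 0 in every SMF and EC library but averaged 4.90 and 0.844 FPKM in SC. Tnnt1 and Tnnc1, also on the slow list, averaged 7.32 and 3.50 FPKM in SC, against 0.368 and 0.135 FPKM in SMF. Most of the sum in SC came from Atp2a2, a calcium pump also used outside muscle (35.4 FPKM), and in EC from Atp2a2 (22.6 FPKM) and Casq2 (12.1 FPKM), a calcium-binding protein. Of the 5 slow markers tested, 4 were lower in SMF minus SC and 1 was not called. Over all tested genes 56.5% were lower there. In SMF minus EC, 2 of the 5 were lower and 3 were not called.

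The ratio of Mybpc2 to Mybpc1 was 1.36, 1.43 and 1.31 in SMF, a mean of 1.37 ± 0.062 (SD, n = 3), against 0 and 0.0230 in SC. It cannot be formed in EC, where both genes were at 0.

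Mybph (chr1:134193418-134201237), which shares the myosin-binding end of protein C, was far lower. It had 3.42, 3.67 and 3.41 FPKM in SMF, against 0 and 0.576 FPKM in SC and 0 in each EC library. It was called higher in SMF minus SC (log2 difference 1.84 ± 0.21, SE, adjusted p = 0.00016) and in SMF minus EC (adjusted p = 2.8e-05), and was not called in SC minus EC (adjusted p = 0.268). The fibre values rest on 41.7 to 48.7 fragments of 100 bases. Which of its 2 listed transcripts took them changed between fibre libraries: ENSMUST00000191577 had 3.43, 0.671 and 3.42 FPKM, and ENSMUST00000038445 had 0, 3.83 and 0 FPKM.

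**Figure D2:**
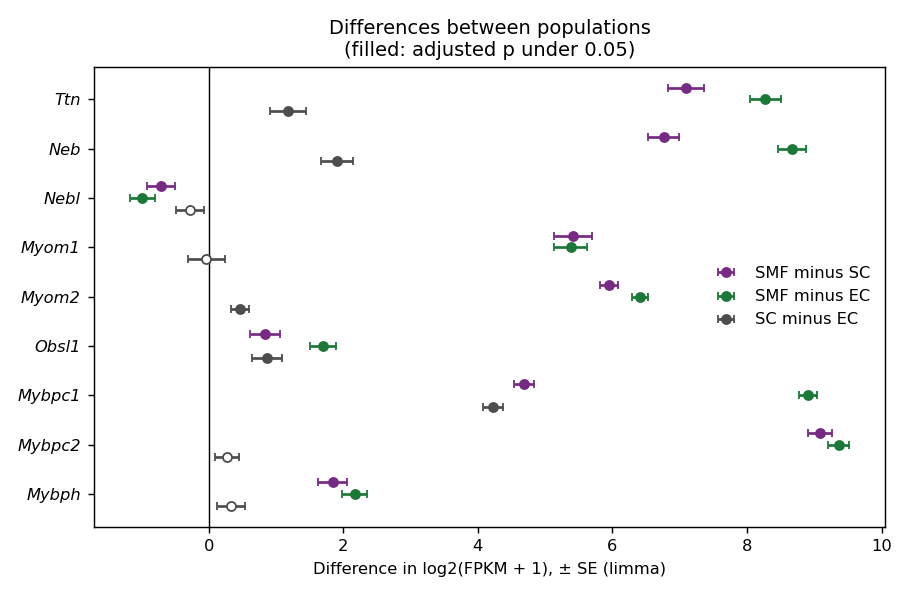
Differences in log2(FPKM + 1) for SMF minus SC, SMF minus EC and SC minus EC, with standard errors from limma; filled points have an adjusted p under 0.05. Both comparisons with SMF are far above 0 for Ttn, Neb, Mybpc1, Mybpc2, Myom1 and Myom2, closer to 0 for Obsl1 and Mybph, and below 0 for Nebl.

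By FPKM in SMF the genes ran from Mybpc2 through Mybpc1, Neb, Ttn, Myom1, Myom2, Mybph and Obsl1 to Nebl. Among neighbours in this order, only Mybpc1 and Neb, and Neb and Ttn, had overlapping ranges, and Neb was above Ttn in all 3 SMF libraries. This order holds for FPKM. In the TPM table Neb came first in every SMF library, with 1343, 1408 and 909.9 TPM, followed by Ttn with 813, 648 and 427 TPM, then by Mybpc2 and Mybpc1, and Obsl1 was above Mybph. The FPKM summed over listed transcripts ran in the same order as TPM in each SMF library. In SC the order was Mybpc1, Neb, Myom1, Ttn, Obsl1, Nebl, Myom2, Mybph and Mybpc2, and each gene from Neb onward overlapped with the next. In EC the order began with Myom1, Nebl and Ttn, which did not overlap, followed by Obsl1, Neb and Myom2, and Mybpc1, Mybph and Mybpc2 were at 0.

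Reads of Myom1 and Mybpc1 were assigned to different transcripts in fibres and in sorted cells. Shares are of the FPKM summed over the listed transcripts of a gene. The deposited transcript table holds 89871 transcripts, and 25348 numbers up to 115219 are absent from it, so shares could not be tested and are given as descriptions. In SMF, the Myom1 transcript with 37 exons, ENSMUST00000179759, held 98.2, 98.2 and 96.6% of the listed FPKM, and it was listed at 0 in both SC and all 3 EC libraries. There, 100% of the listed Myom1 FPKM was in ENSMUST00000073211, which has 38 exons. In SMF that transcript held 0.319, 0.250 and 0.385%. As a level, it had 0.513, 0.392 and 0.551 FPKM in SMF, against 1.86 and 3.11 FPKM in SC and 3.00, 1.46 and 3.42 FPKM in EC, so it was lower in fibres while the gene was higher. The additional exon, exon 18, codes for the segment known as EH, which embryonic heart myomesin carries. It is shown because it alone separates the transcript of SC and EC from that of fibres. It has 294 bases, all coding and a multiple of 3, and its place is given in GRCm39, since the exon was read from GENCODE M39; no base is marked.
Myom1 exon 18 (chr17:71389198-71389491, plus strand): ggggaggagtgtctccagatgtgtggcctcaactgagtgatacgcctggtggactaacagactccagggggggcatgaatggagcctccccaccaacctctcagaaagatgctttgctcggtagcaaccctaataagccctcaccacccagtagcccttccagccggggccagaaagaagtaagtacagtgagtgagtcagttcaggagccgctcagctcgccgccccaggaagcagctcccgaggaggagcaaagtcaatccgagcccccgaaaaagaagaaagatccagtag
Spread evenly, the coverage of the 38-exon transcript would put 1.58 to 2.99 fragments of 100 bases on this exon in each SC and EC library, so the assignment in sorted cells rests on few reads.

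Mybpc1 showed a similar shift. In SMF, ENSMUST00000119185 held 85.1, 87.0 and 87.5% of the listed FPKM, with 512, 532 and 518 FPKM, and it was listed at 0 in both SC libraries. In SC, ENSMUST00000121629 held 74.5 and 97.7%, with 16.5 and 23.1 FPKM. In SMF it held 8.18, 7.37 and 8.68%, with 49.2, 45.1 and 51.3 FPKM, so its level was higher in SMF than in SC although its share was smaller. The SC transcript has a coding exon of 42 bases near the start that the fibre transcript lacks, and the fibre transcript has a coding exon of 59 bases near the end that the SC transcript lacks. The exon of 59 bases is not a multiple of 3, so the coding sequence after it also differs. Both exons are shown, with places in GRCm39 and no base marked.
Mybpc1 exon 3 (chr10:88417869-88417910, minus strand): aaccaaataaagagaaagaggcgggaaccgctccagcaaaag
Mybpc1 exon 27 (chr10:88357139-88357197, minus strand): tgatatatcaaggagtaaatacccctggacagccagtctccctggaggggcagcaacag
On the exon of 42 bases, an even spread gives 10.8 to 12.0 fragments of 100 bases in SMF libraries and 2.17 and 2.69 in SC libraries. On the exon of 59 bases it gives 160.5 to 179 in SMF libraries.

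**Figure D3:**
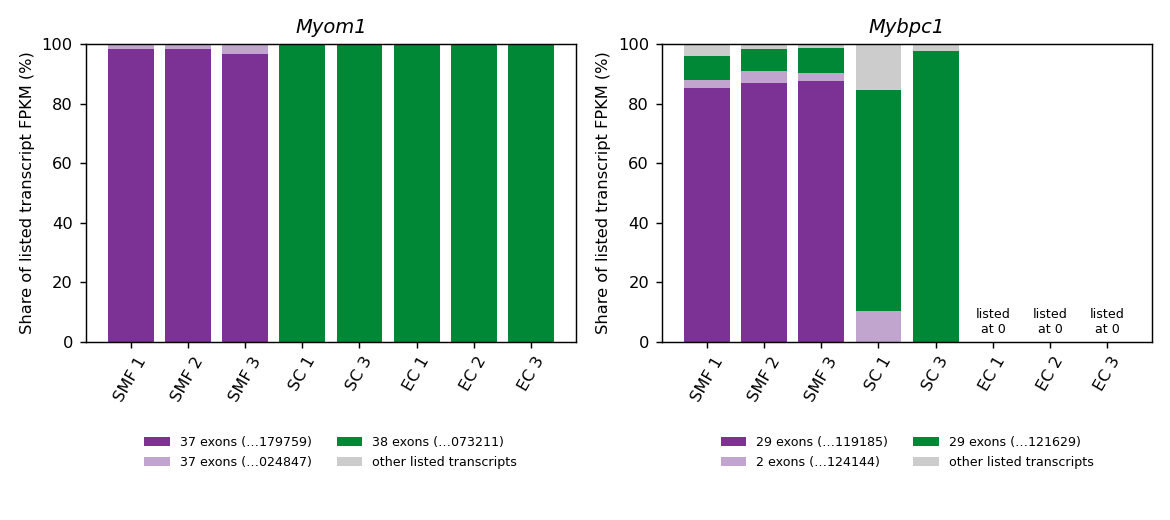
Share of the FPKM summed over listed transcripts of Myom1 and Mybpc1 (percent, stacked bars) in each library of SMF, SC and EC. The main fibre transcripts, with 98.2, 98.2 and 96.6% of Myom1 and 85.1, 87.0 and 87.5% of Mybpc1, are at 0 in SC, and Mybpc1 has no bar in EC because it was listed at 0.

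The Ttn transcript with 347 exons, ENSMUST00000099981, held 38.9, 61.6 and 40.9% of the listed Ttn FPKM in SMF. In SC it held 91.6 and 86.9%, and in EC 86.6, 100 and 73.6%. In fragments of 100 bases, however, it held most of the listed Ttn coverage in every library. In SMF it carried 267555, 345152 and 164725 fragments, against 283917, 356789 and 175284 over all listed transcripts. The lower FPKM share in SMF was therefore not a low share of coverage. Shorter transcripts inside the gene changed between fibre libraries: ENSMUST00000138542, with 34 exons, had 457, 0 and 322 FPKM in SMF replicates 1 to 3, and ENSMUST00000123804, with 11 exons, had 33.8, 169 and 6.67 FPKM.

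The level of each member in SC was also read as a percent of its mean level in SMF and set beside the fast fibre markers, since fast fibre transcripts were present in the sorted libraries. The 13 markers lay between 0.0528 and 2.24% in SC, with a median of 0.659%. Neb at 0.706%, Ttn at 0.474%, Myom2 at 0.457% and Myom1 at 1.71% lay within that range. Mybpc1 at 3.72%, Mybph at 8.23% and Obsl1 at 41.6% lay above it, and Mybpc2 at 0.0352% lay below it. The Mybph and Mybpc2 values come from SC replicate 3 alone, since both genes were listed at 0 in SC replicate 1. In EC the markers lay between 0.00271 and 0.152%, with a median of 0.0302%. Ttn at 0.0720%, Neb at 0.0184% and Myom2 at 0.0136% were within that range, and Myom1 at 1.80% and Obsl1 at 6.82% were above it. The marker range is that of fast fibre genes relative to EDL fibres. Slow markers were higher in SC than in SMF, among them Tnnt1 (7.32 against 0.368 FPKM) and Myl2 (4.90 FPKM against 0). The range thus gives no reference for RNA of slow fibres, which bears on Mybpc1, the slow type. The part of fibre RNA in the SC and EC levels of these genes was not tested.

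**Figure D4:**
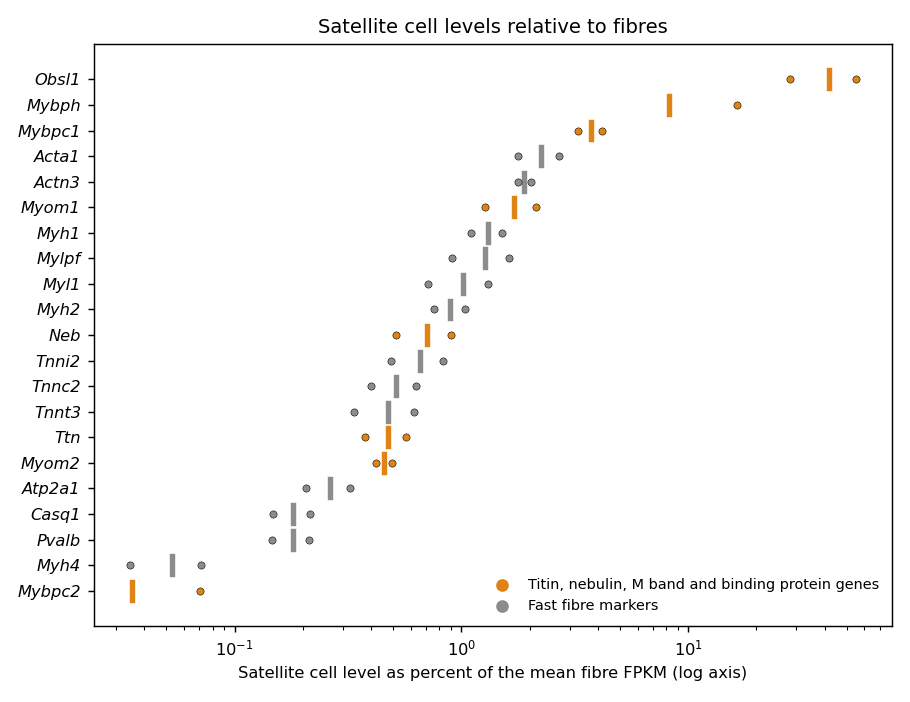
Level in SC as a percent of the mean SMF level (log axis) for the members with a value and for the 13 fast fibre markers. Obsl1 at 41.6%, Mybph at 8.23% and Mybpc1 at 3.72% exceed the highest marker, at 2.24%. The markers include no slow fibre gene.

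The 2 SC libraries differed in the same direction for most members. The ratio of SC replicate 3 to SC replicate 1 was 1.52 for Ttn, 1.74 for Neb, 1.96 for Obsl1, 1.68 for Myom1, 1.29 for Mybpc1 and 1.17 for Myom2, and it was 0.368 for Nebl. All 13 fast fibre markers were higher in SC replicate 3 as well, with a median ratio of 1.55. Without SC replicate 3, 2 members, Neb and Mybpc1, were called in SC minus EC. In EC replicate 2, Ttn and Neb were 1.40 and 1.99 times the mean of the other two EC libraries, while Obsl1 was 0.367 times and Myom1 0.454 times that mean. The same library had lower levels of all 8 mural cell markers (median ratio 0.244), all 7 immune markers (0.124) and all 7 fibro-adipogenic markers (0.199), while the endothelial markers had a median ratio of 1.01. Whether those cells carry Obsl1 or Myom1 was not tested.

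Ttn, Neb and Obsl1 varied most in FPKM between fibre libraries, and Ttn and Neb are the longest of the members. Over the 3 SMF libraries the coefficient of variation was 30.3% for Ttn, 20.4% for Neb and 20.8% for Obsl1, against 8.04% for Myom2, 6.05% for Myom1, 5.41% for Mybpc2 and 4.25% for Mybph. The FPKM ratio of SMF replicate 3 to SMF replicate 2 was 0.533 for Ttn, 0.664 for Neb, 0.852 for Myom2 and 0.899 for Mybpc2. It was 0.911 for Myom1, 0.929 for Mybph, 0.983 for Mybpc1 and 0.992 for Obsl1, whose FPKM spread came from SMF replicate 1. The same ratio was lower the longer the transcript over the 1610 genes with a fibre mean of at least 10 FPKM. Its median was 1.16 over the 726 genes whose longest listed transcript is up to 1 kb and 1.04 over the 351 genes of 2 to 4 kb. It was 0.956 over the 177 genes of 4 to 8 kb and 0.847 over the 22 genes of 8 to 16 kb. Above 16 kb there were 5 genes, Ttn and Neb among them, with a median of 0.762. Across these genes, which share the same libraries and are not replicates, Spearman's rho between length and the ratio was -0.32. Pearson's correlation of their logarithms was -0.18. For SMF replicate 1 over SMF replicate 2 Spearman's rho was -0.041. The medians of that ratio were nonetheless lower in the longer classes. They were 1.05 up to 1 kb, 1.05 at 2 to 4 kb and 0.994 at 4 to 8 kb. At 8 to 16 kb the median was 0.902 and above 16 kb 0.905, with Ttn at 0.781 and Neb at 0.818. In the TPM table Obsl1 had 4.26, 8.69 and 5.72 TPM in SMF replicates 1 to 3, so SMF replicate 2 stood apart there. Every member but Nebl was lower in SMF replicate 3 than in SMF replicate 2 in TPM, short Mybph (2.02 against 3.10 TPM) included. The scale of TPM against FPKM differed between these libraries. Mybpc2, with 1 listed transcript, had 695 and 624 FPKM in SMF replicates 2 and 3 but 479 and 369 TPM. The lower TPM in SMF replicate 3 are therefore not a result about single genes or about length. The relation to length was not examined in TPM.

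**Figure D5:**
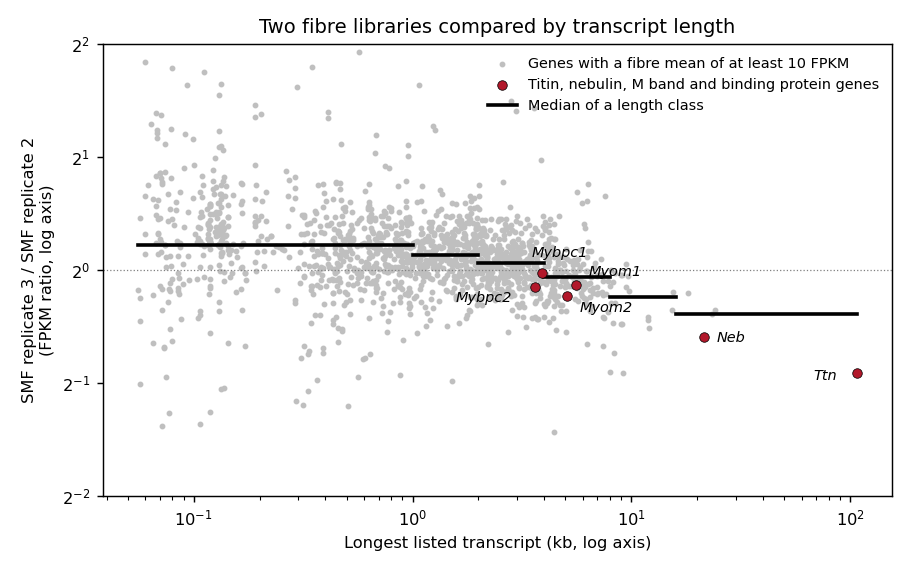
Ratio of FPKM in SMF replicate 3 to SMF replicate 2 (log axis) against the length of the longest listed transcript (log axis) for 1610 genes, with the median of each length class as black lines; 20 points lie outside the axis. Ttn at 0.533 and Neb at 0.664 lie at the long end, where the class median is 0.762.

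Counts for the lists of related genes below are to be read against the shares over all tested genes. Called were 65.1% in SMF minus SC, 66.3% in SMF minus EC and 37.7% in SC minus EC. Those called higher were 8.57, 10.8 and 21.2% of all tested genes in the same order. Most tested genes of the same families were called in the direction of the members. Of 10 relatives, 7 were tested; in SMF minus SC, 5 were higher, 1 was lower and 1 was not called. Myot, the Z disc protein myotilin, averaged 227 ± 5.60 FPKM in SMF and 1.72 ± 0.272 in SC (SD, n = 3 and 2; log2 difference 6.40 ± 0.13, SE). Nrap, a protein with nebulin repeats, averaged 107 FPKM in SMF and 0.712 in SC. Mypn, which binds nebulin at the Z disc, averaged 50.4 and 0.627 in the same order. Lasp1, a small nebulin relative found at actin structures of many cell types, was the exception, with 0.185 ± 0.131 FPKM in SMF, against 14.8 ± 2.35 in SC and 20.7 ± 0.873 in EC. Myom3, the myomesin of slow and intermediate fibres, did not pass the filter, with 0.277 FPKM in SMF and 0.269 in SC. In SMF minus EC, 6 relatives were higher and 1 was lower, and in SC minus EC, 5 were higher and 2 were not called.

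Of 16 partners of titin and of the M band, 15 were tested, and in SMF minus SC 9 were higher, 2 were lower and 4 were not called. The highest in fibres were Ckm, the muscle creatine kinase, part of which binds the M band (2144 FPKM in SMF, 11.2 in SC), and Tcap, which caps titin at the Z disc (548 in SMF, 6.49 in SC). Ankrd23, an ankyrin repeat protein that binds titin, averaged 279 FPKM in SMF and 3.25 in SC, and Cmya5, a protein of the costameres and triads, 246 in SMF and 2.24 in SC. Sqstm1 and Nbr1, autophagy receptors linked to the titin kinase, averaged 66.0 and 5.38 FPKM in SMF, against 113 and 13.2 FPKM in SC. Neither call was stable: after median-of-ratios scaling Sqstm1 was higher in SMF (log2 difference 0.83, adjusted p = 0.0269) and Nbr1 was not called (0.23, adjusted p = 0.529). The Sqstm1 call was also lost without SC replicate 1 (adjusted p = 0.143) or SMF replicate 2 (adjusted p = 0.0727), and the Nbr1 call in the TPM table (adjusted p = 0.0881). Counts for the list were 13 higher, 1 lower and 1 not called in SMF minus EC, and 10 higher and 5 not called in SC minus EC.

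All 16 partners of nebulin and of the thin filament were tested, and in SMF minus SC 11 were higher, 3 were lower and 2 were not called. Xirp2, an actin-binding Xin repeat protein, averaged 251 FPKM in SMF and 3.19 in SC, and its relative Xirp1 averaged 107 and 0.998 in the same order. Klhl41, which stabilises nebulin, averaged 156 FPKM in SMF and 4.88 in SC, and Tmod4, a tropomodulin that caps thin filaments of skeletal muscle, 104 in SMF and 0.866 in SC. The widely expressed tropomodulin Tmod3 averaged 0.462 FPKM in SMF, against 6.99 in SC and 68.5 in EC, and Wasl, which nucleates actin filaments together with nebulin, 2.43 in SMF and 12.2 in SC. In SMF minus EC, 12 were higher and 4 were lower, and in SC minus EC, 7 were higher, 3 were lower and 6 were not called.

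Of the 16 genes for sarcomere assembly and for splicing of sarcomere transcripts, in SMF minus SC 8 were higher, 4 were lower and 4 were not called. Hspb8, a small heat shock protein, averaged 145 FPKM in SMF and 7.92 in SC, and Unc45b, the myosin chaperone, 26.4 in SMF and 0.610 in SC. The splicing regulators Rbm24 and Rbfox1 averaged 30.5 and 27.6 FPKM in SMF, against 6.58 and 0.458 FPKM in SC. Ptbp1, a splicing repressor, averaged 1.11 FPKM in SMF and 25.9 in SC (log2 difference -3.65 ± 0.30, SE, adjusted p = 2.87e-05). Bag3, a co-chaperone of the Z disc, averaged 39.2 FPKM in SMF and 157.7 in SC, and that call was lost after median-of-ratios scaling (adjusted p = 0.186). In SMF minus EC, 9 were higher, 3 were lower and 4 were not called, and in SC minus EC the counts were 8, 3 and 5.

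The genes whose pattern over the 8 libraries was most like that of 4 members were found by the root mean square difference of centred log2(FPKM + 1) values, a description of likeness in these libraries. For Ttn they were Eef1a2 (0.34), Myot (0.40), Trdn (0.42) and Xirp2 (0.49). For Nebl, where low values leave little room to differ, they were Gm38162 (0.079), RP23-423B21.6 (0.096), Gm42934 (0.098) and Aff1 (0.099). For Obsl1 they were Asph (0.15), Pbxip1 (0.16), Ivd (0.18) and Arhgef10l (0.20). For Mybph they were Gm28437 (0.088), Chchd3 (0.12), Itgb6 (0.15) and Mfn2 (0.16).

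Upstream sequence was read from the RefSeq table of GRCm38.p6 for the members, and 7 of 9 matched; Neb and Myom2 had no entry. The windows of 250 bases before the start were searched on both strands for E-boxes (CANNTG, the core bound by myogenic factors), CATTCC (bound by TEAD factors), the MEF2 site, TATAAA and the CArG box. Stretches of the 3 matched members with the highest fibre levels are shown, without the bases that lie inside the RefSeq gene span. Capitals mark E-boxes, the MEF2 site and CATTCC or its reverse complement.
Ttn (chr2:76982558-76982797, minus strand): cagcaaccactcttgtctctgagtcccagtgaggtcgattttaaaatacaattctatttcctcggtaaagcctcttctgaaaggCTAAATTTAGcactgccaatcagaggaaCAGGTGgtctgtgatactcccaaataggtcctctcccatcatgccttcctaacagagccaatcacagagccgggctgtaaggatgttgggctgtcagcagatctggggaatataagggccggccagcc
Mybpc2 (chr7:44524716-44524919, minus strand): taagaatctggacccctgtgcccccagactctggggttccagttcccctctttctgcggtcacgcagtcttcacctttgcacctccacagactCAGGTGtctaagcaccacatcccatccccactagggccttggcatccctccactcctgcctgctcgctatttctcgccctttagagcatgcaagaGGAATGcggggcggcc
Mybpc1 (chr10:88605230-88605402, minus strand): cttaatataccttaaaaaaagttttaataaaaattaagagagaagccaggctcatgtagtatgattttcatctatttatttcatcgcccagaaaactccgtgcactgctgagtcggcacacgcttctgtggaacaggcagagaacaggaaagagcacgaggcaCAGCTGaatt
Distances are counted from the start used for the window. It lies past the end of the printed stretch, by 10 bases for Ttn, 46 for Mybpc2 and 77 for Mybpc1. The Ttn stretch holds the MEF2 site CTAAATTTAG 166 bases before the start and the E-box CAGGTG 138 bases before it. The Mybpc2 stretch holds CAGGTG at 157 and GGAATG at 62 bases before the start. The Mybpc1 stretch holds CAGCTG at 87 bases before the start. These letters are common: of 32851 RefSeq windows of the same length, 66.2% hold an E-box and 12.6% hold CATTCC, while 2.92% hold the MEF2 site, 12.4% TATAAA and 1.47% a CArG box. A match is a description of the sequence, and binding was not measured.

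The strand was kept in the libraries, but its use in assigning reads is not given in the sources used here. Genes on the opposite strand overlap 6 of the members, and the 5 of them with a row in the gene table reached at most 1.98 FPKM in any library. This is not small beside the low members. In SC, Tmem198 opposite Obsl1 reached 1.04 FPKM, and Adora1 opposite Mybph 1.14 FPKM. Obsl1 had 0.818 and 1.60 FPKM there and Mybph 0 and 0.576 FPKM. The Obsl1 transcript ENSMUST00000156499, which spans Tmem198, held 41.8, 22.6 and 34.9% of the listed Obsl1 FPKM in SMF. The share of such reads was not tested.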

How the data were processed

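RNA of 8 libraries was measured and grouped by sample title. The submitters' processing notes name build mm10 and FastQC, Trimmomatic, HISAT2, StringTie and bedtools; tool versions and the use of strand were not given in the sources used here. Per the labels' protocols, 10 ng of RNA entered a stranded, randomly primed total RNA kit with ribosomal depletion, and ends of 50 bp were read in pairs. The authors deposited FPKM for 36048 genes, per the file headers. The authors also deposited TPM for 46435 loci, used as an alternative, and FPKM and coverage for single transcripts.

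Since the gene table holds FPKM and not counts, limma 3.58.1 (R 4.3.3) with a mean-variance trend was run on log2(FPKM + 1) with 1 mean for each group, 2-sided. Differences are on this scale, which understates the change of low genes, and adjusted p-values are from limma with Benjamini-Hochberg adjustment over all 16700 tested genes. Of each list, up to 4 genes with the highest fibre mean called in the main direction of SMF minus SC, and up to 2 called in the other, are named; genes singled out as not tested (Myom3) were named after their values were seen. Mybpc3 and Mybphl, also on the list of relatives, were not analysed here, and 1 further relative is not reported by name. The members and lists were chosen with earlier results of these data known. Coverage times transcript length, divided by 100 bases, gave fragments. The calculation was tested on simulated data. Sequences are from RefSeq (GRCm38.p6) and GENCODE M39 (GRCm39). Alternatives were other scalings, a pseudocount of 0.1, other filters, the TPM table, limma without trend or robust, the replicate number as a block, and leaving out each library.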

Additional observations from a re-analysis of the deposited data

How the results depend on the processing

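The counts of members called in SMF minus SC and SMF minus EC were within 1.5 times the main counts under every alternative run. In SMF minus EC all 161 values of single members kept direction and call, and in SMF minus SC 159 of 161 did. The exceptions were Nebl under scaling without the 50 most abundant genes and Obsl1 without SC replicate 1, both given above. The filter of 1 FPKM in 3 libraries removed Nebl, so it gave no value for that gene. In SC minus EC, 5 members were called, and 2 under scaling without the 50 most abundant genes. Leaving out 1 library at a time gave 2 (without SC replicate 3) to 7 (without SC replicate 1) members. Of single members in SC minus EC, 140 of 161 values kept direction and call, 14 lost the call, 3 gained one and 4 turned sign. All that turned sign belong to Myom1, which was never called: 0.012 in the TPM table, and -0.30 to 0.23 when single libraries were left out. Same-numbered libraries did not clearly deviate together (correlations of -0.058 to 0.091). This cannot settle whether the numbers pair them, since the 2 SC libraries deviate as mirror images and the labels name no animals. With the replicate block, Myom2 in SC minus EC had a log2 difference of 0.48 (adjusted p = 0.0677 in limma), and 4 members were called there. Of the other genes named, Sqstm1 in SMF minus SC turned sign under median-of-ratios (0.83), upper-quartile (0.48) and top-gene scaling (0.29), and Nbr1 under median-of-ratios scaling (0.23). The Sqstm1 call was also lost with the replicate block (adjusted p = 0.0593). Of all 414 values for the 23 such genes, 403 kept direction and call, 7 lost the call and 4 turned sign. The cause was not tested. Depth limits the low values. By listed transcripts, Mybpc2 and Mybph in SC carry up to 4.63 and 3.73 fragments of 100 bases. Myom2 carries 9.86 to 10.3 in SC and up to 0.970 in EC, Obsl1 up to 7.20 in EC and Nebl 7.78 to 21.6. These values rest on few fragments, and Myom2 and Obsl1 carry calls in SC minus EC. The listed Neb transcripts carry 5.55 to 21.7 fragments in SC and up to 1.23 in EC. They sum to less FPKM than the gene value in both, so the fragments behind the Neb call cannot be read from them.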
